A study of Mus musculus with 18 samples.

Results

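The rows described here are the Rab GTPases and the SNARE machinery of membrane traffic in eosinophils sorted from the small intestine of mice. They were chosen by name: every gene whose symbol starts with Rab, Vamp, Stx, Stxbp or Snap followed by a digit, which gave 102 of the 22708 genes in the table. By role these were 59 Rab GTPases, 10 proteins named for a Rab that are not GTPases (effectors and regulators such as Rab11fip1 and Rab3gap2), 6 VAMPs, 15 syntaxins, 7 syntaxin-binding proteins and 5 SNAP proteins. Of these, 84 had a count in every library and none was at 0 in all libraries. The rule takes in traffic at every membrane of the cell, so that the members are not restricted to secretion, and it takes in Snap91, a clathrin adaptor of another family. No row is named Vamp7, so that it could not be analysed, and syntaxin 4 appears under its table name Stx4a.

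Rab GTPases are molecular switches that recruit tethers, motors and other effectors to a membrane while bound to GTP, and each marks a particular compartment. SNARE proteins carry out the fusion itself: VAMPs on the vesicle pair with syntaxins and SNAP proteins on the target membrane, and Sec1/Munc18 proteins such as Stxbp2 and Stxbp3 guide that pairing. Eosinophils store cationic proteins and cytokines in granules, which they release by whole-granule exocytosis or piecemeal through small vesicles, and members such as Rab27a, Vamp2, Vamp8, Stx11, Stxbp2 and Snap23 are known from granule secretion in leukocytes.

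The study sequenced total RNA of eosinophils gated as CD11b+, MHC-II-, SiglecF+ and SSChi from C57/BL6 mice (C57BL/6 in the study's methods). AHR is the aryl hydrocarbon receptor, which switches on genes when it binds dietary or microbial ligands, and AHRR is its repressor. The 18 samples comprised 6 of wild-type (WT) mice, 6 labelled Ahr-/- and 6 labelled Ahrr-/-. Every group of 6 held males M1 to M3 and females F1 to F3. Neither knockout label names a cell type to which it is restricted, and the Ahr-/- and WT mice were bred in the same facility but were neither littermates nor cohoused. The study's methods give an age of 6 to 14 weeks, matched within 3 weeks, without the age of each mouse, and the allele and deleted exons of the Ahrr knockout are not given in the sources used here. Total counts recovered from the table ran from 3842977 to 8149200 in WT, from 6581818 to 10284124 in the samples labelled Ahr-/- and from 8788867 to 12046933 in those labelled Ahrr-/-. Levels below are the deposited variance-stabilized values, which are close to log2 for abundant genes and start at 5.02 for a count of 0, so that differences between low counts are compressed. No 2 libraries of a group were copies, since at least 15745 genes had different counts in any pair.

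The targeted genes were read first. The Ahr level was 13.40, 13.76 and 14.40 (lowest, median and highest) in WT, 14.15, 14.55 and 14.67 in the samples labelled Ahr-/- and 13.03, 13.51 and 14.42 in those labelled Ahrr-/-, and no sample labelled Ahr-/- lay below the WT median (difference from WT 0.61, SE 0.19, adjusted p = 0.0557). Ahrr, itself a target gene of AHR, had 550 to 1024 counts in WT and 0 to 10 in the samples labelled Ahr-/-, with a difference of -4.83 (SE 0.14). In the samples labelled Ahrr-/-, Ahrr had 1104 to 2151 counts and a level of 9.95, 10.37 and 10.93, against 9.79, 10.12 and 10.39 in WT (difference 0.28, SE 0.18, adjusted p = 0.683). Counts summed over a whole gene cannot check a deletion of some exons. Neither label could be checked from the targeted transcript, and every direction below is one between libraries labelled as stated.

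Of the eosinophil markers, Siglecf, Ccr3, Il5ra and Alox15 were abundant in all 18 libraries, with Ccr3 between 5286 and 15551 normalized counts, and of the granule genes Epx stayed between 3.03 and 23.6 and Ear6 at 0 in 16 of 18 libraries. Markers of gut epithelium, which the gate should remove, were present in every library: the 17 listed genes, led by Lyz1, summed to 15268 to 49575 normalized counts in WT, 11950.1 to 16165 in the samples labelled Ahr-/- and 14314 to 96289 in those labelled Ahrr-/-, and none of the 17 was at 0 throughout. The list includes Reg3b, Reg3g, Tff3 and Defa24. The paper reports trefoil factors, Reg3b, Reg3g and alpha-defensins as induced in intestinal eosinophils themselves. How much of each sum came from epithelial cells was not tested. The sums were highest in the Ahrr-/- labelled samples F3 (74582), M1 (94591) and M3 (96289), of which F3 and M3 also had the lowest summed eosinophil markers (38016 and 28658, against 45183 to 65085 in WT). The neutrophil list summed to 24246 to 49009 in WT and 56088 to 113776 in the samples labelled Ahr-/-, nearly all of it Retnlg, while the defining neutrophil genes Ly6g and Elane were at or near 0. WT F3 and Ahr-/- labelled F3 stood apart in another way, with a count in 89.1% and 86.7% of genes against at most 75.9% in any other library.

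The most abundant members in WT belong to several compartments. Levels between genes are compared here per kb of exon, as normalized counts. Rab7, the Rab of late endosomes and lysosomes, had 1248 ± 85.5 per kb (SD, n = 6), followed by Snap23, the SNAP-25 relative of non-neuronal cells, with 813 ± 292, and Stx12, a syntaxin of recycling endosomes, with 667 ± 231. Among the Rab GTPases came next Rab2a (562 ± 47.2), Rab8b (553 ± 104) and Rab1a (511 ± 78.2). Rab2a and Rab1a act between the endoplasmic reticulum and the Golgi. Snap23 and Stx12 did not differ beyond their spread, nor did Rab2a, Rab8b and Rab1a.

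The other roles had leaders of their own in WT. Vamp4, a SNARE between the Golgi and endosomes, had the highest mean of the VAMPs with 552 ± 258 per kb, followed by Vamp3 (316 ± 24.2), Vamp2 (279 ± 70.4) and Vamp8 (195 ± 26.9). Vamp4 and Vamp3 did not differ beyond their spread, with ranges of 244 to 939 and 281 to 347. After Stx12 the syntaxins were led by Stx17 (397 ± 89.9), the SNARE that autophagosomes use to fuse with lysosomes, and Stx4a (305 ± 27.2), a plasma membrane syntaxin. Stxbp2, the Munc18 of granule exocytosis in lymphocytes and neutrophils, had 500.0 ± 112 per kb, Stxbp5 (tomosyn, which occupies syntaxin and SNAP proteins in place of a VAMP) 251 ± 58.6 and Stxbp3 64.8 ± 10.3. Rab11fip1, Rab11fip4 and Rab3gap2 led the Rab-associated proteins with 278 ± 49.8, 162 ± 11.2 and 90.9 ± 20.9, and Snap29 and Snap47 followed Snap23 with 60.2 ± 10.4 and 14.9 ± 8.52.

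Granule-associated Rabs differed in abundance. Rab27a, which docks secretory granules in leukocytes, and Rab44, a large Rab of blood cell granules, had 390.1 ± 61.6 and 343 ± 111 normalized counts per kb in WT, and Rab37, a Rab of mast cell granules, had 156 ± 26.1. Rab27b had 5.01 ± 2.73, Rab3d 16.5 ± 5.34 and Rab3a, the Rab of synaptic vesicles, 2.89 ± 2.49. Snap25 and Stx1a, SNAREs of the synaptic plasma membrane, were as scarce with 1.75 ± 2.73 and 1.08 ± 1.1. Stx11 and Stx3, syntaxins of granule fusion in cytotoxic cells and in mast cells, had 213 ± 82.3 and 97.3 ± 21.

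**Figure D1:**
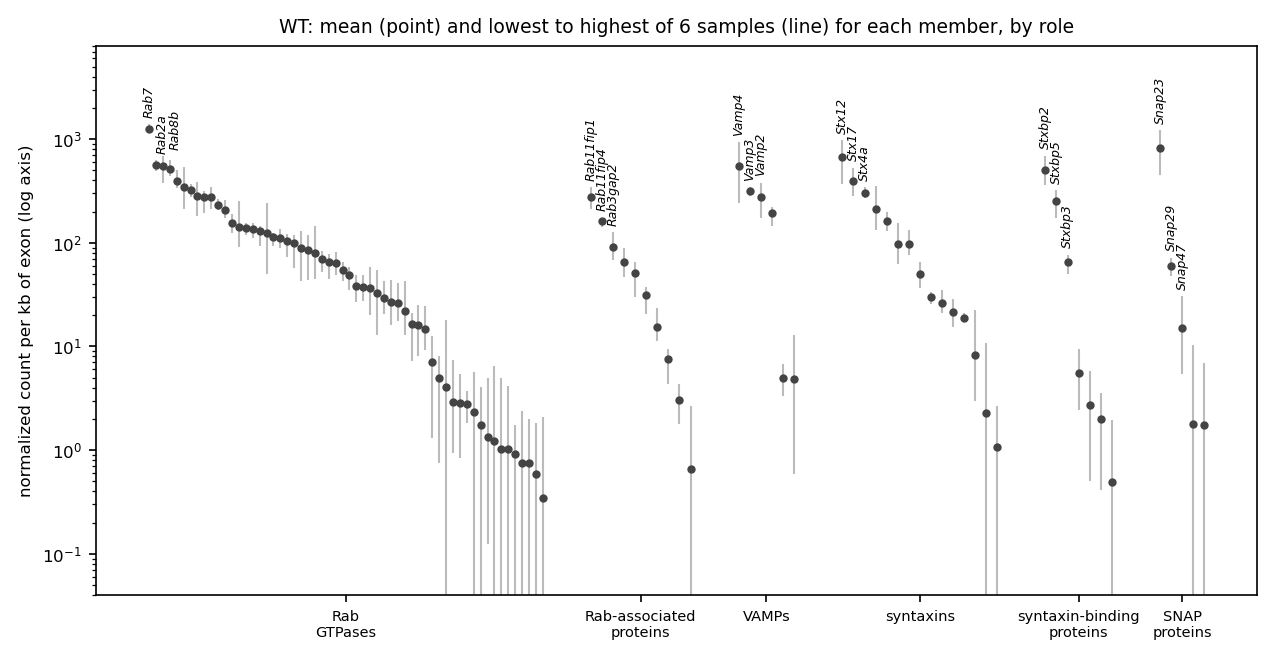
Normalized count per kb of exon (log axis) of each member in WT, ordered within its role; points are means and lines run from the lowest to the highest of 6 samples, down to the axis edge where a sample was at 0. Rab42, with a WT mean of 0, is not drawn, and the 3 most abundant members of each role are named; Rab7 at 1248 stands highest and the scale runs down to 0.348 for Rab9b.

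Members also differed in how much they varied among mice. Over the 79 members abundant enough to be tested (mean level at least 1 above the lowest value of the table), the SD among WT samples was 0.27 in the median and ran from 0.06 for Stx2 to 0.69 for Vamp4, against a median of 0.26 over all 11468 genes tested. Rab20 varied most in both knockout-labelled groups, with an SD of 0.75 in the samples labelled Ahr-/- and 0.85 in those labelled Ahrr-/-. These SDs pool the sexes, which lay apart for Rab20 in both groups. Females lay at 8.49 to 8.87 and males at 7.07 to 7.62 in the samples labelled Ahr-/-. In those labelled Ahrr-/- they lay at 8.22 to 9.37 and 7.07 to 8.21. The 23 members under that minimum included Rab3a, Snap25, Stx1a, Vamp5 and Rab26 and were not tested.

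The first comparison asked which members differed between the samples labelled Ahr-/- and WT. Stx17, Stxbp5, Rab39, Stx12, Rab7 and Rab2a were lower in the samples labelled Ahr-/- and Stx2 was higher, at an adjusted p below 0.05 by limma with sex in the model. These 7 were 8.86% of the 79 members tested, near the background of 8.84% over all genes (1003 of 11346), so that the number is not a result about the members. In single directions, 6 members were lower, where 3.68% of all genes were, and 1 was higher, where 5.16% of all genes were. In 5 members, Stx17, Stxbp5, Rab7, Rab2a and Stx2, no sample labelled Ahr-/- overlapped a WT sample, which held for 4.51% of all genes. The median difference was 0.03 over the members and -0.00 over all genes. In bulk RNA, fewer cells that express a gene and less of its RNA per cell cannot be told apart.

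Stx17, on chr4:48124915-48186507 (GRCm38), showed the largest difference. Its level was 10.76, 11.23 and 11.65 in WT (lowest, median and highest of 6) and 9.92, 10.37 and 10.51 in the samples labelled Ahr-/-. All 6 of the latter lay below every WT sample, and Ahr-/- labelled F3 lay lowest. The difference was -0.90 (SE 0.15, adjusted p = 0.00094), a ratio of 0.537 on this scale. The samples labelled Ahrr-/- lay between, at 10.11, 10.89 and 11.35, and overlapped both other groups. Stx17 stayed below 0.05 in all 23 other settings of the test.

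Stxbp5, on chr10:9755547-9901079, behaved alike. Its level was 11.50, 12.08 and 12.40 in WT and 11.09, 11.26 and 11.42 in the samples labelled Ahr-/-, again without overlap. The WT samples were spread widely (SD 0.35) and the samples labelled Ahr-/- were close together (SD 0.11). The difference was -0.75 (SE 0.14, adjusted p = 0.00336), a ratio of 0.593, and held in all 23 other settings.

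Rab39, a Rab of late endosomes and phagosomes on chr9:53684110-53706232, had levels of 8.37, 8.70 and 9.67 in WT and 7.75, 8.13 and 8.69 in the samples labelled Ahr-/-. The groups overlapped across the sexes, with males higher than females in both: the lowest WT female lay at 8.37 and the 3 males labelled Ahr-/- at 8.35 to 8.69. Within a sex they did not overlap. The difference with sex in the model was -0.69 (SE 0.12, adjusted p = 0.00212). Without sex in the model the adjusted p was 0.0696, and each of the other 22 settings kept the call.

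Stx12, on chr4:132853501-132884509, had levels of 10.27, 11.08 and 11.64 in WT and 9.71, 10.28 and 10.85 in the samples labelled Ahr-/-, with 3 of the latter below every WT sample, and a difference of -0.75 (SE 0.19, adjusted p = 0.019). The call was lost without Ahr-/- labelled F3 (adjusted p = 0.0509), without both F3 samples (0.0817), without sex in the model and without the minimum level, with an adjusted p of at most 0.0941 over its settings. Rab7 and Rab2a moved less: Rab7 lay at 11.58, 11.68 and 11.85 in WT and 11.14, 11.34 and 11.55 in the samples labelled Ahr-/- (difference -0.35, SE 0.09, adjusted p = 0.0265), and Rab2a at 10.13, 10.31 and 10.45 and 9.86, 9.99 and 10.04 (difference -0.32, SE 0.08, adjusted p = 0.0253). Rab7 kept its call in 15 and Rab2a in 13 of 23 other settings. Leaving out WT F3 or Ahr-/- labelled F1, F2 or M3 ended both calls, WT M3 that of Rab7, and WT M2 or Ahr-/- labelled F3 or M1 that of Rab2a, with adjusted p up to 0.0833 and 0.058. Over all settings it was at most 0.11 for Rab7 and 0.0985 for Rab2a, the latter without both F3 samples. Without both F3 samples, the differences stayed close to those with all samples, at -0.71 for Stx12, -0.36 for Rab7 and -0.29 for Rab2a.

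Stx2, a plasma membrane syntaxin, lay at 7.10, 7.18 and 7.28 in WT and 7.40, 7.48 and 7.65 in the samples labelled Ahr-/-, so that the 2 groups did not overlap (difference 0.32, SE 0.10, adjusted p = 0.0488). Its adjusted p was close to the threshold, and it passed in 5 of 22 other settings and in none of the 12 that left out 1 sample, with adjusted p up to 0.119. The difference of Stx2 was 0.32 without both F3 samples as well.

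**Figure D2:**
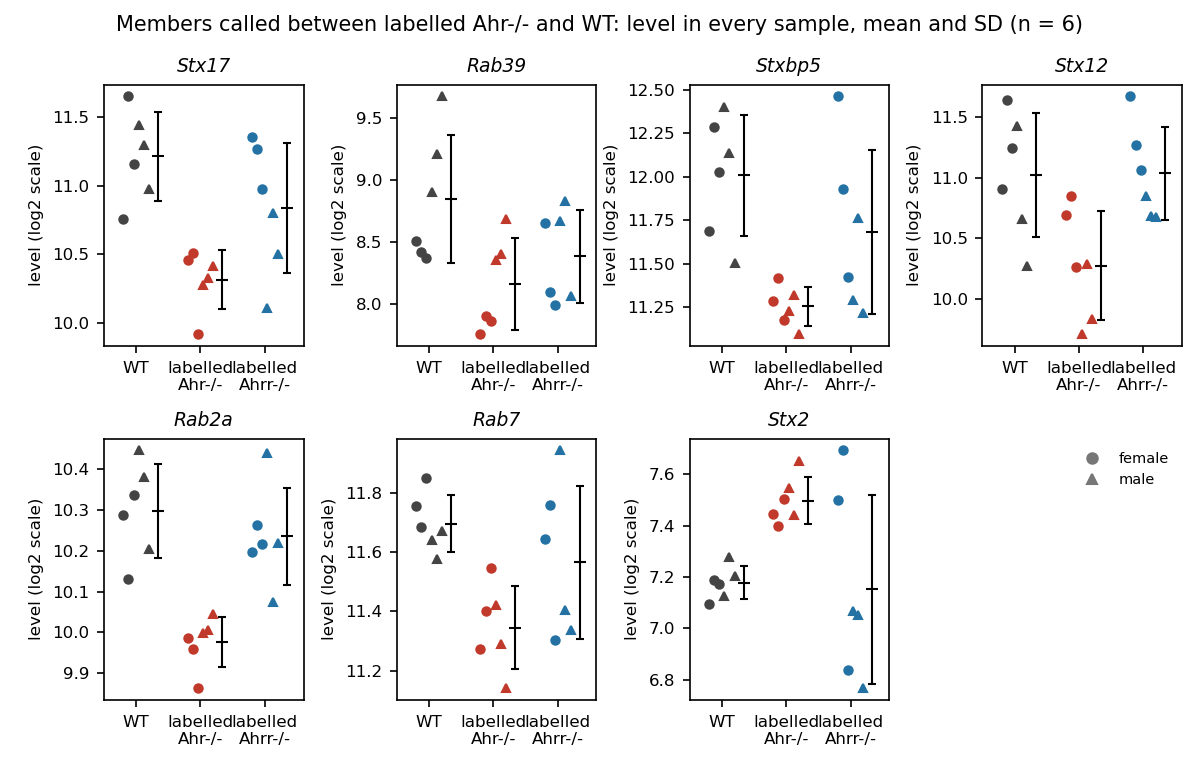
Level (log2 scale) of the 7 members that passed the test between the samples labelled Ahr-/- and WT; each point is a sample, triangles are males and circles females, and bars give the mean and SD of 6 samples. The samples labelled Ahr-/- sit below all WT samples for Stx17, Stxbp5, Rab2a and Rab7 and above them for Stx2, and those labelled Ahrr-/- were not part of this test.

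The counts of members and genes depended on single libraries. Leaving out WT F3, or Ahr-/- labelled F1, F3 or M3, gave 4 members, and leaving out both F3 samples gave 3 members (Stx17, Stxbp5 and Rab39) and 586 genes. The genes called fell as well, to 733 without WT F3 and to 623, 739 and 685 without Ahr-/- labelled F1, F3 and M3. The summed epithelial markers of the samples labelled Ahr-/- (11950.1 to 16165) lay below every WT sample in 5 of 6, and their neutrophil sums, nearly all Retnlg, lay above every WT sample. The 6 platelet markers, led by Ppbp, summed to 136 to 207 against 239 to 679.7 in WT, with Gp9 and Treml1 at or near 0 in both groups, and the 7 endothelial markers, nearly all Pecam1, to 1885 to 2344 against 2582 to 3848, both without overlap. The summed eosinophil markers were 63986 to 80835 in the samples labelled Ahr-/- and 45183 to 65085 in WT. The epithelial list includes Reg3b, Reg3g and Tff3, which the paper reports as higher in WT than in Ahr-/- eosinophils. The part of all these sums in the differences was not tested.

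The members with a textbook role in granule secretion were not among those that passed. Rab27a lay at 10.42 to 10.97 in WT and 10.42 to 11.22 in the samples labelled Ahr-/-, with a difference of 0.09 (95% confidence interval -0.16 to 0.34). The intervals were -0.24 to 0.36 for Stxbp2, -0.28 to 0.60 for Snap23, -0.11 to 0.41 for Vamp8 and -0.16 to 0.25 for Stx4a, so that a change of 1 on this scale in either direction lay outside each of them. Vamp2 differed by 0.24 (-0.04 to 0.52), Stx3 by 0.16 (-0.09 to 0.41), Stx11 by -0.10 (-0.56 to 0.35), Stxbp3 by -0.18 (-0.43 to 0.08) and Rab44 by 0.27 (-0.12 to 0.65). The intervals of Rab37 (0.04 to 0.52) and Rab27b (-0.86 to -0.01) left out 0, with adjusted p = 0.15 and 0.208, and Rab3d had -0.03 to 0.59.

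By role, 3 of 44 Rab GTPases tested were lower in the samples labelled Ahr-/-, 1 of 5 syntaxin-binding proteins was lower, and of 13 syntaxins 2 were lower and 1 higher, where 3.68% of all genes were lower and 5.16% higher. None of the 9 Rab-associated proteins, 5 VAMPs and 3 SNAP proteins passed the test. At an unadjusted p below 0.05 were 20 of the 79 members and 2638 of all genes.

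**Figure D3:**
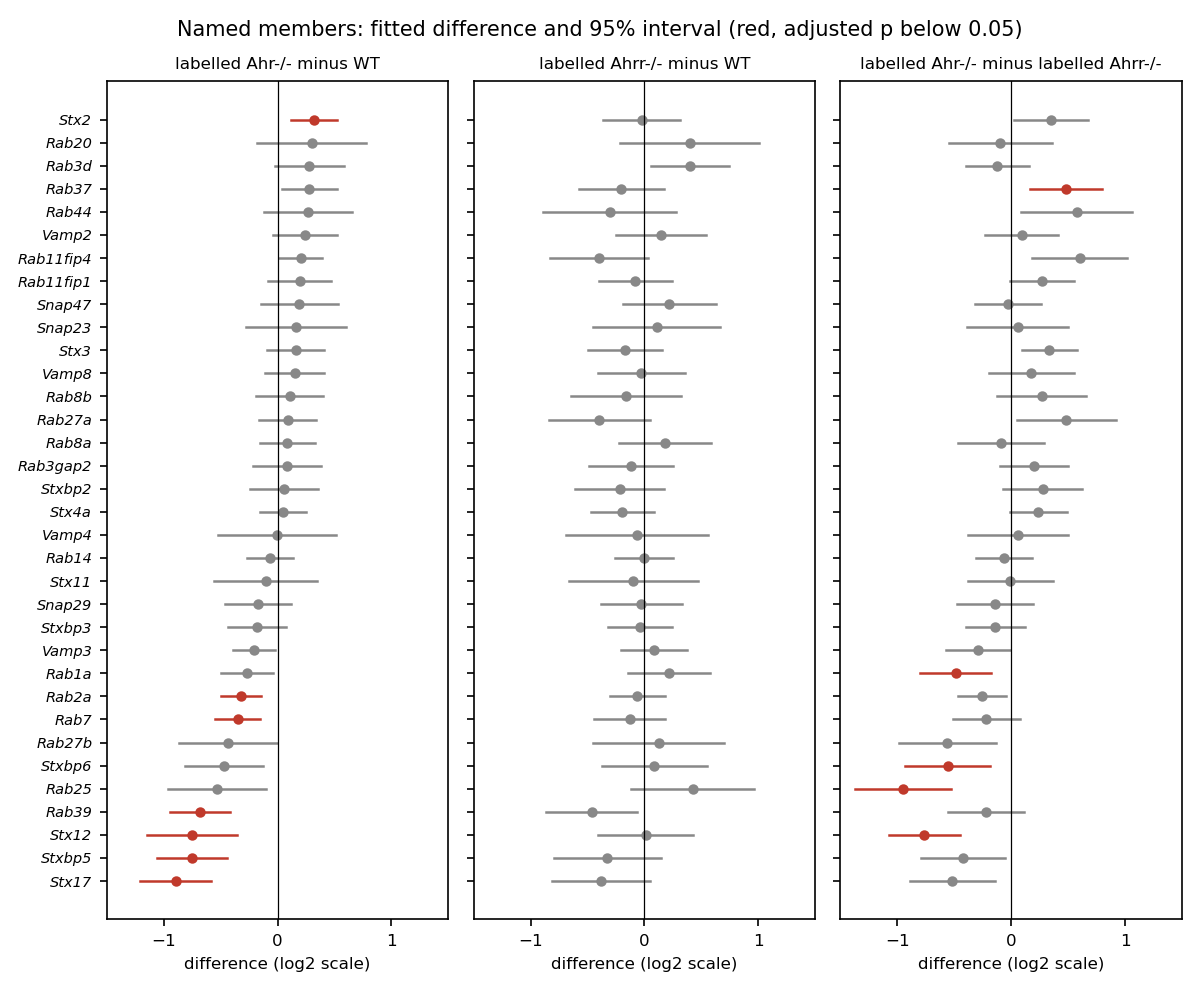
Difference between groups (log2 scale) with its 95% confidence interval for the 34 named members that were tested, in order of the difference between the samples labelled Ahr-/- and WT; red marks an adjusted p below 0.05. Stx17 at -0.90 stands lowest in the first panel, no member is red in the second, and Rab25 at -0.95 stands lowest in the third; the panels share their groups in pairs and are not independent.

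Genes that act with the members but fall outside the naming rule were taken from 4 lists, to be read against the 5.16% of all genes that were higher and the 3.68% that were lower. Of 15 other SNAREs and SNARE-recycling factors tested, Sec22c, of a family acting between the endoplasmic reticulum and the Golgi, was higher in the samples labelled Ahr-/- by 0.45 (SE 0.11, adjusted p = 0.0131) and none was lower. Of 65 regulators of Rabs, 3 were higher and 5 lower. Tbc1d4, a GTPase-activating protein that holds back glucose transporter vesicles in fat and muscle, rose from 7.42, 7.76 and 7.88 in WT to 8.23, 8.41 and 8.56, without overlap (difference 0.71, SE 0.11, adjusted p = 0.000631). Its paralog Tbc1d1 went the other way, by -0.76 (SE 0.13, adjusted p = 0.00129). Sgsm2 and Dennd2d were the others that were higher (0.42 and 0.42), and Dennd2a and Dennd1b, DENN-domain activators of Rabs, were among those lower (-0.79 and -0.67). Dennd2a reached the minimum for testing only through WT (mean 6.48). Its mean in the samples labelled Ahr-/- (5.68) lay under that minimum, so that its call is not read as a result.

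Of 24 exocytosis tethers, primers and Rab effectors tested, 4 were higher in the samples labelled Ahr-/- and 1 was lower, again against 5.16% and 3.68% of all genes. Rims3, a relative of the active zone protein RIM1, had levels of 6.19, 6.45 and 6.68 in WT and 6.80, 7.99 and 8.12 in the samples labelled Ahr-/- (difference 1.36, SE 0.19, adjusted p = 0.000178). Sytl1, an effector of Rab27, and Exoc6b, a subunit of the exocyst, were higher by 0.66 and 0.52, both without overlap. The exocyst subunit Exoc3 was lower, at 8.97, 9.06 and 9.23 against 10.10, 10.54 and 10.71 in WT (difference -1.41, SE 0.11, adjusted p = 4.59e-07). Exoc3 lies beside Ahrr on chromosome 13, on the same strand and with 2385 bases between the annotated ends of the genes, and both were lower in all 6 samples labelled Ahr-/-. How far reads of one could be counted for the other was not tested. None of the 13 HOPS, CORVET and other Sec1/Munc18 genes tested passed the test in either direction.

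Promoters are shown for the 4 members with the smallest adjusted p in this comparison, because AHR with its partner ARNT binds DNA at the core letters GCGTG. Each line gives the 250 bases before the RefSeq start (GRCm38.p6), 5′ to 3′ on the strand of the gene, with GCGTG or its reverse complement CACGC in capitals. Stx17 is on the plus strand at chr4:48124669-48124918, and the others are on the minus strand at chr9:53706233-53706482 (Rab39), chr10:9901041-9901290 (Stxbp5) and chr4:132884459-132884708 (Stx12).
Stx17: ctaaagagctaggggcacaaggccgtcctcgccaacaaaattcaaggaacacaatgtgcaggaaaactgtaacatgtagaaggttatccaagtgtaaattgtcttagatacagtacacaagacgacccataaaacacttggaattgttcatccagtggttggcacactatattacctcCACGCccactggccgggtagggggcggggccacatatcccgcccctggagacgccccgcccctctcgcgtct
Rab39: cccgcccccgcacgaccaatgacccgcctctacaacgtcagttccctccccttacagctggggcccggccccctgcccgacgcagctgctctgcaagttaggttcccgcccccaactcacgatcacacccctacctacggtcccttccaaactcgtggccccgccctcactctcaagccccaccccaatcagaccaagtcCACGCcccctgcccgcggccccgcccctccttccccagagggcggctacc
Stxbp5: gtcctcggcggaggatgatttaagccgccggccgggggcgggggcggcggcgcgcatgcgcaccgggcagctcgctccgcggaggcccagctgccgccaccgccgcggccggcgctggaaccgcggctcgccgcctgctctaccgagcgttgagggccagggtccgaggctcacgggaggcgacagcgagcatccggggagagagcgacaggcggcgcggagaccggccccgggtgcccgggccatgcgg
Stx12: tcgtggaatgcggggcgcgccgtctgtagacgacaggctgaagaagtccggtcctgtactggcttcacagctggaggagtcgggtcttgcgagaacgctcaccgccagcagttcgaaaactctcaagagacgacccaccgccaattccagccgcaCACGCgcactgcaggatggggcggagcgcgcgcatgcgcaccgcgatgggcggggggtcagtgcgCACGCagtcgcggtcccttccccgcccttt
The window of Stx12 holds 2 matches, those of Stx17 and Rab39 1 each and that of Stxbp5 0. A match was found in 28.2% of all 32851 promoters of that length, in 49.5% of the 9133 genes tested that had one and in 50.0% of the 84 members that had one (42 of 84, tested or not), where 30.9% of the 27025 genes with a promoter had a match. Among the 6 called members with a promoter, 4 had a match. A match is a string of letters and was not tested as a binding site.

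The second comparison asked which members differed between the samples labelled Ahrr-/- and WT. No member passed the test, and 9 of 11546 genes did (0.0779%). At an unadjusted p below 0.05 were 3 members and 853 genes, and limma-voom on the recovered counts likewise called 0 members. The count of genes was 25 without Ahrr-/- labelled F1 and 4 or 5 without WT F1, F2, M2 or M3 or Ahrr-/- labelled F2, F3, M2 or M3. The 3 members were Rab3d, at 7.08, 7.38 and 7.53 against 6.36, 7.02 and 7.19 in WT (difference 0.40, SE 0.16, adjusted p = 0.617), Rab39 (-0.46, SE 0.19, adjusted p = 0.617) and Rab10 (0.29, SE 0.13, adjusted p = 0.663). Rab3d belongs to exocytosis in secretory cells and Rab10 to Golgi and endosomal traffic. The groups overlapped for every member tested, where 0.459% of all genes did not overlap.

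The spread among the samples labelled Ahrr-/- was wide for many members. Its median over the members tested was 0.32, against 0.27 in WT and 0.20 in the samples labelled Ahr-/-, with 0.32, 0.26 and 0.21 over all genes. Rab27a ran from 9.41 to 10.76 against 10.42 to 10.97 in WT, Rab44 from 9.46 to 11.37 against 10.14 to 11.44, and Rab11fip4, an effector of Rab11, from 9.08 to 10.50 against 10.14 to 10.42. The lowest levels were in Ahrr-/- labelled M3 and F3 for Rab27a (9.41 and 9.77), M1 and M3 for Rab44 (9.46 and 9.60) and M3, F3 and M1 for Rab11fip4 (9.08, 9.62 and 9.71), the samples of highest epithelial sum, whose part was not tested. Without these 3 samples the difference from WT went from -0.39 to -0.14 for Rab27a, from -0.31 to 0.25 for Rab44 and from -0.40 to 0.03 for Rab11fip4. With all samples, the interval of the difference from WT was -0.84 to 0.05 for Rab27a, -0.89 to 0.28 for Rab44 and -0.81 to 0.05 for Stx17, each including 0. None of the 15, 67, 26 and 13 genes tested of the 4 lists passed in either direction.

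Setting the samples labelled Ahr-/- against those labelled Ahrr-/- compared the knockout labels directly, sharing its samples with both comparisons above. Stx12, Rab25, Rab1a and Stxbp6 were lower in the samples labelled Ahr-/- and Rab37 was higher. Of these, Stxbp6 reached the minimum for testing only through the samples labelled Ahrr-/-, so that its call is not read as a result. With it, the 5 called members were 6.33% of the members tested, against 14.9% of all genes (1708 of 11474). In single directions, 4 members were lower, where 8.04% of all genes were, and 1 was higher, where 6.84% were. Rab2a was the member whose groups did not overlap, at 9.86 to 10.04 in the samples labelled Ahr-/- and 10.07 to 10.44 in those labelled Ahrr-/- (-0.26, SE 0.10, adjusted p = 0.0852), where 4.61% of all genes did not overlap.

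Stx12 was the steadiest of these. It lay at 9.71, 10.28 and 10.85 in the samples labelled Ahr-/- and 10.68, 10.96 and 11.67 in those labelled Ahrr-/-, with 4 of the former below all of the latter and a difference of -0.76 (SE 0.15, adjusted p = 0.00466). The call held in all 23 other settings. With the 3 samples of highest epithelial markers left out (Ahrr-/- labelled F3, M1 and M3), a setting chosen after the data were seen, Stx12 differed by -0.82 (adjusted p = 0.00791). In that setting Stx17 and Stxbp5 passed as well, with -0.80 (0.00612) and -0.77 (0.00485), where all samples together gave -0.52 (SE 0.17, adjusted p = 0.0576) and -0.43 (SE 0.17, adjusted p = 0.104), and other settings an adjusted p of up to 0.15 and 0.21.

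Rab25, a Rab11 relative of the apical recycling endosome of epithelia on chr3:88542029-88548300, lay at 6.49, 7.12 and 7.36 in the samples labelled Ahr-/- and 7.04, 8.08 and 8.54 in those labelled Ahrr-/- (difference -0.95, SE 0.20, adjusted p = 0.00725). It was highest in the Ahrr-/- labelled samples M3, M1 and F3 (8.54, 8.52 and 8.14), which had the highest summed epithelial markers of all libraries, and in WT it was highest in F1 (8.26) and M3 (7.82), which had the highest sums of that group (48519 and 49575). Without those 3 Ahrr-/- labelled samples the difference was -0.58 (adjusted p = 0.0884). Stxbp6 (amisyn, which binds syntaxins in place of a VAMP) rested on 3 to 86 counts, lay at 5.48, 5.84 and 6.14 and 5.47, 6.52 and 6.78 (difference -0.56, SE 0.17, adjusted p = 0.0437) and in the 6 samples of highest epithelial sum lay at 6.36 to 6.78, with WT F3 (6.71) and Ahrr-/- labelled F1 (6.39) as high at sums of 29231 and 20729.6. It passed in 5 of 21 other settings. Other marker sums also did not overlap between the samples labelled Ahr-/- and Ahrr-/-: 136 to 207 and 702 to 1155 for platelets, 56088 to 113776 and 24445 to 45703 for neutrophils, and 84.3 to 214 and 248 to 979 for neurons and enteroendocrine cells, led by Chgb. The part of these sums and of epithelial RNA in the levels was not tested further.

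**Figure D4:**
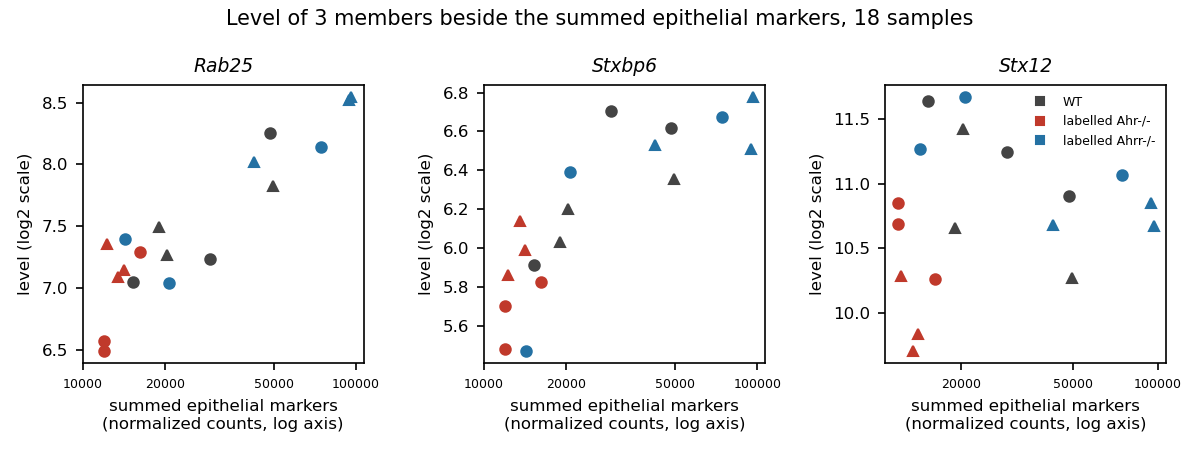
Level (log2 scale) of Rab25, Stxbp6 and Stx12 against the summed normalized counts of the 17 epithelial markers (log axis), with 1 point a sample, colours for the labelled genotype, triangles for males and circles for females. Rab25 lies at 7.82 or above in the 6 samples of highest sum and lower in every other sample, Stxbp6 is as high in WT F3 and Ahrr-/- labelled F1 as in those 6, and Stx12 shows no such order; the samples labelled Ahr-/- all have sums of 11950.1 to 16165.

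Rab1a and Rab37 moved in opposite directions. Rab1a lay at 10.54, 10.70 and 10.84 in the samples labelled Ahr-/- and 10.78, 11.18 and 11.60 in those labelled Ahrr-/- (difference -0.49, SE 0.15, adjusted p = 0.039), and Rab37 at 9.93, 10.05 and 10.31 and 9.12, 9.62 and 10.12 (0.48, SE 0.15, adjusted p = 0.0419). Rab1a passed in 11 and Rab37 in 13 of 23 other settings, and without the 3 samples named above the differences were -0.20 and 0.28, with adjusted p at its highest, 0.392 and 0.239. Rab1a was highest in those samples (M1 11.60, M3 11.42 and F3 11.40) and in WT M3 and F1 (11.26 and 11.17), the samples of highest epithelial sum in either group, but lowest of its group in Ahrr-/- labelled M2 (10.78), which had the next highest sum of the Ahrr-/- label (42277). The part of epithelial RNA in it was not tested. Rab27a, Rab44 and Rab11fip4 had intervals of 0.05 to 0.92, 0.09 to 1.06 and 0.19 to 1.02, all above 0, with adjusted p = 0.112, 0.0964 and 0.0504. Without the 3 samples their differences went from 0.48, 0.57 and 0.60 to 0.25, 0.06 and 0.18. Leaving out Ahrr-/- labelled F1 or F2 gave 12 and 13 members, leaving out Ahrr-/- labelled F3 or M3 or Ahr-/- labelled F1, F2, M1, M2 or M3 gave 2, and leaving out the 3 samples together gave 3 members and 626 genes. The count of genes was 2574 without Ahrr-/- labelled F1 and 818 to 1001 without each of the 7 samples that gave 2 members. Centring each sample on its median gave 6 members, of which 4 were higher. The balance over all genes turned as well, from 785 higher and 923 lower to 981 and 827 with centring, 1029 and 819 with quantile normalization and 432 and 281 without the minimum.

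In the 4 lists, to be read against 6.84% of all genes higher and 8.04% lower, Sec22c was again higher in the samples labelled Ahr-/- (0.40, SE 0.11, adjusted p = 0.029), as the only call among 15 SNAREs, and 5 of 64 Rab regulators were higher and 3 lower, with Tbc1d4 (0.76), Tbc1d8 (0.69) and Tbc1d10c (0.63) highest and Dennd5b (-0.69), Tbc1d1 (-0.65) and Tbc1d10a (-0.53) lowest. Of 24 tethers, primers and effectors 6 were higher and 3 lower. Rims3 (1.43), Sytl1 (0.65) and Unc13d (0.64), the primer of granules in cytotoxic cells, were higher, and Exoc3 (-1.39), Exph5 (-1.07) and Sytl2 (-0.86), the last 2 effectors of Rab27, were lower. None of 13 HOPS and CORVET genes passed.

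Males and females were compared over all 18 samples, with genotype in the model. Vamp2, Rab20, Stx12 and Rab8a were lower in males, and Rab14 and Rab39 were higher. These 6 were 7.59% of the members tested, against 3.06% of all genes (351 of 11468), a difference that was itself not tested. In single directions, 2 members were higher in males, where 0.602% of all genes were, and 4 were lower, where 2.46% were.

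Rab14, which acts between the Golgi and endosomes, lay at 9.29, 9.64 and 9.84 in the 9 females (lowest, median and highest) and 9.85, 10.01 and 10.20 in the 9 males. Every male lay above every female, the nearest being Ahrr-/- labelled F1 and M1 at 9.84 and 9.85. Of all genes, 0.148% had no overlap between the sexes, in either direction. The difference was 0.41 (SE 0.09, adjusted p = 0.0157), a ratio of 1.33. Its size was 0.45 in WT, 0.55 in the samples labelled Ahr-/- and 0.23 in those labelled Ahrr-/-. Rab39 went the same way, at 7.75, 8.10 and 8.65 in females and 8.06, 8.69 and 9.67 in males (difference 0.58, SE 0.13, adjusted p = 0.0218).

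Vamp2, a vesicle SNARE of regulated exocytosis, lay at 10.06, 10.56 and 11.03 in females and 9.48, 9.98 and 10.20 in males, with 6 males below every female and a difference of -0.65 (SE 0.13, adjusted p = 0.0104). Rab20, a Rab of phagosome maturation, had the largest difference, -1.03 (SE 0.21, adjusted p = 0.0123), with levels of 7.69, 8.64 and 9.37 in females and 6.98, 7.35 and 8.21 in males. It was -0.55 in WT, -1.31 in the samples labelled Ahr-/- and -1.22 in those labelled Ahrr-/-. Stx12 (-0.58, SE 0.15, adjusted p = 0.0365) and Rab8a, a Rab of traffic to the plasma membrane (-0.50, SE 0.13, adjusted p = 0.0453), were lower in males too. Close to the threshold lay Rab11fip1 (-0.39, SE 0.11, adjusted p = 0.0633), Vamp4 (-0.71, SE 0.21, adjusted p = 0.0743) and Rab44 (-0.63, SE 0.20, adjusted p = 0.0851), all with lower means in males.

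**Figure D5:**
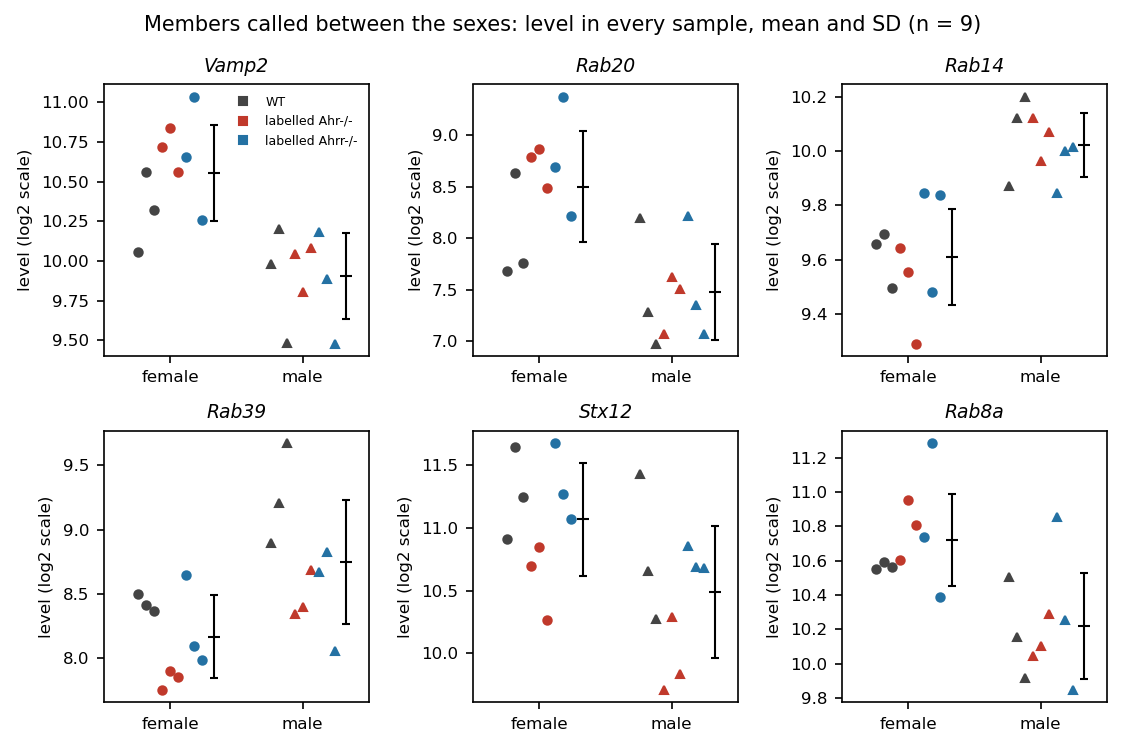
Level (log2 scale) of the 6 members that passed the test between the sexes, with 1 point a sample, colours for the labelled genotype and bars for the mean and SD of 9 samples. All 9 males sit above all 9 females for Rab14, and the sexes overlap for the other 5 members.

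Rab14, Vamp2 and Rab20 kept their call whichever sample was left out. In WT alone, with 3 males and 3 females, no member and 5 genes passed, and Rab14 differed by 0.45 and Vamp2 by -0.42 (adjusted p = 0.998 for both). Rab39 was lost without both F3 samples (0.06), Stx12 passed in 15 and Rab8a in 10 of 28 other settings, with 1 sample left out in 7 and 4 of 18, and leaving out WT F1 or M1 gave 10 members. The count of genes was 733, 595 and 577 without WT F1, WT M1 or Ahrr-/- labelled F3, and 142 to 211 without WT F2 or M3, Ahr-/- labelled F1, F2, M1, M2 or M3, or Ahrr-/- labelled F1, F2 or M3. The summed eosinophil markers were 28658, 63986 and 67464 in males and 38016, 68622 and 80835 in females (lowest, median and highest), and the epithelial sums 12259, 20334 and 96289 and 11950, 16165 and 74582. The 10 mast cell and basophil markers, led by Kit, summed to 58.8, 77.6 and 207 in males and 73.6, 179 and 538 in females. Their part in the differences between the sexes was not tested. Of the Rab regulators, Rabif was higher in males (0.41, SE 0.11, adjusted p = 0.0482) and Rabgef1, an activator of Rab5, lower (-0.96, SE 0.19, adjusted p = 0.0103), and no gene of the other 3 lists passed.

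Whether genotype acted differently in males and females was tested as an interaction. By limma no member and no gene (0%) passed for the samples labelled Ahr-/- and WT, with 4 members and 533 genes at an unadjusted p below 0.05, and none (0%) for those labelled Ahrr-/- and WT, with 3 members and 544 genes. Limma-voom called 0 in both. The member with the smallest p in both was Rab19, for which the difference from WT in males minus that in females was 0.85 (SE 0.31, adjusted p = 0.954) and 1.01 (SE 0.36, adjusted p = 0.727). Whether the libraries marked strand is not stated in the sources used here. If they did not, reads of members with an antisense partner in the table, Rab10, Rab26 and Rab11fip4, cannot be told from those of the partner. Close paralogs such as Rab27a and Rab27b, Rab11a and Rab11b or Rab8a and Rab8b may share reads.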

How the data were processed

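RNA of sorted small intestinal eosinophils was amplified without strand marking stated and sequenced single-end. Per the submitters' processing notes, reads were aligned with STAR 2.5.2 to GRCm38 and counted with RSEM 1.3.0, and the authors then used DESeq2 in R 4.0.3. The deposited table holds 1 variance-stabilized value on a log2 scale for each of 22708 genes and 18 samples, as made by the authors. Inverting that scale gave counts that were whole within 0.0001 in 100% of values (largest deviation 3.84e-08), and from these total counts, normalized counts and counts per kb (GENCODE vM21 exons, GRCm38, matched for all 102 members) were computed.

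Genes with a mean at least 1 above the lowest value, 5.02, were tested on the deposited values with limma 3.58.1 (R 4.3.3), with a mean-variance trend, Benjamini-Hochberg adjustment over all genes tested and a threshold of 0.05. Each pair of genotypes was fitted alone with sex as a covariate, and the sexes over all samples with genotype. The labels do not state the animals, and the paper's methods count mice as replicates; p-values measure the spread between these samples. The procedure was tested on simulated data. Alternatives were no or a higher minimum (3), median centring, quantile normalization, no trend, log2 of normalized counts plus 1, limma-voom, no sex term, all samples in 1 fit, a replicate block and leaving out samples. Leaving out both F3 samples, or Ahrr-/- labelled F3, M1 and M3, was chosen after seeing the data.

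The members and all lists were chosen with earlier results of these data known. Named are members that passed in any of 4 comparisons, members whose groups of 6 did not overlap, the 3 most abundant of each role, members with a textbook role in leukocyte granule secretion and up to 3 called genes of each list in each direction. The promoter motif, the 4 promoters and the other genes named were chosen after their values were seen. Of all listed genes, 8 had no row.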

Additional observations from a re-analysis of the deposited data

Results flagged for a closer look

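A sample stood far from the other 5 of its group, by the gap to its neighbour relative to the range of the group, in 11 of 153 groups looked at, of which 6 were among the 108 groups of named members. Chance gives about 1 in 20 groups.

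Among the members, Rab14 was lowest in Ahrr-/- labelled F2 (9.48, the next 9.84), which lies toward the other females. Rab3d and Vamp8 were both lowest in WT M1 (6.36 and 8.64, the next 6.89 and 8.99). Rab3gap2 was highest in Ahrr-/- labelled F1 (10.49, the next 9.91). Stxbp3 was lowest in Ahr-/- labelled F3 (8.05, the next 8.52). Stxbp6 was lowest in Ahrr-/- labelled F2 (5.47, the next 6.39), where it had 3 counts.

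The other flags were on libraries and marker sums. The share of genes with a count was highest in WT F3 (89.1%, the next 72.8%) and in Ahr-/- labelled F3 (86.7%, the next 73.6%). On the log2 scale the summed markers of mast cells and basophils were lowest in Ahrr-/- labelled M2 (6.16), those of T cells and innate lymphocytes lowest in Ahrr-/- labelled F1 (4.46) and those of neurons and enteroendocrine cells lowest in Ahr-/- labelled F2 (6.40).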

How the results depend on the processing

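Stx17 and Stxbp5 between the samples labelled Ahr-/- and WT, and Stx12 between those labelled Ahr-/- and Ahrr-/-, kept their direction and stayed under the threshold in all 23 other settings. Counts of members and genes moved more. Between Ahr-/- and WT, the count of members was 4 with no sex term, 3 leaving out WT F3 and Ahr-/- F3. Between Ahr-/- and WT, the count of genes was 623 with no minimum, 553 with all samples in 1 fit, 586 leaving out WT F3 and Ahr-/- F3. Between Ahrr-/- and WT, the count of genes was 4 with no minimum or median centring or log2 of normalized counts plus 1 or limma-voom or a replicate block in place of sex or on leaving out Ahrr-/- F3, M1 and M3, 5 with a minimum of 3 or quantile normalization, 14 with all samples in 1 fit. Between Ahr-/- and Ahrr-/-, the count of members was 3 with no minimum or a minimum of 3 or on leaving out Ahrr-/- F3, M1 and M3, 11 with quantile normalization, 2 with no sex term, 8 with a replicate block in place of sex. Between Ahr-/- and Ahrr-/-, the count of genes was 713 with no minimum, 828 with a minimum of 3, 994 with no sex term, 626 leaving out Ahrr-/- F3, M1 and M3. Between male and female, the count of members was 0 with WT samples alone. Between male and female, the count of genes was 163 with no minimum, 5 with WT samples alone. Limma-voom called 968 genes and 7 members between Ahr-/- and WT, 1580 and 4 between Ahr-/- and Ahrr-/-, and 340 and 6 between the sexes. The cause of these changes was not tested, beyond the number of genes tested where the minimum was changed and the number of samples where samples were left out. Leaving out WT F3 and Ahr-/- F3, or Ahrr-/- F3, M1 and M3, was chosen after seeing the data. WT F3 had the lowest total count (3842977), and members with few counts had compressed differences.

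Leaving out 1 sample at a time gave 2 to 13 members between Ahr-/- and Ahrr-/-, 4 to 25 genes between Ahrr-/- and WT, 4 to 10 members between Ahr-/- and WT, 4 to 10 members between male and female, 142 to 733 genes between male and female, 623 to 1124 genes between Ahr-/- and WT and 818 to 2574 genes between Ahr-/- and Ahrr-/-. The counts for the interaction of genotype and sex stayed at 0, as did the members between Ahrr-/- and WT.

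Members that were not called changed sign as follows. With median centring, the difference had the opposite sign between Ahr-/- and Ahrr-/- for Rab14 (0.00014), Snap47 (0.034) and Stx11 (0.056), and between Ahr-/- and WT for Vamp4 (0.011), and between Ahrr-/- and WT for Stx12 (-0.033). Leaving out Ahrr-/- F3, M1 and M3, the difference had the opposite sign between Ahr-/- and Ahrr-/- for Rab3d (0.045), Rab8b (-0.0023), Snap23 (-0.16), Snap47 (0.015), Stxbp2 (-0.0016), Vamp2 (-0.051) and Vamp4 (-0.21), and between Ahrr-/- and WT for Rab11fip4 (0.029), Rab14 (0.0045), Rab1a (-0.088), Rab27b (-0.15), Rab37 (0.0301), Rab3gap2 (0.074), Rab44 (0.25), Rab8b (0.15), Stx11 (0.28), Stx2 (0.22), Stxbp2 (0.078), Stxbp5 (0.022), Stxbp6 (-0.17), Vamp3 (-0.11) and Vamp4 (0.23). With quantile normalization, the difference had the opposite sign between Ahr-/- and Ahrr-/- for Snap23 (-0.0096), Snap47 (0.0704) and Vamp4 (-0.0077), and between Ahrr-/- and WT for Rab14 (0.024). Leaving out WT F3 and Ahr-/- F3, the difference had the opposite sign between Ahr-/- and WT for Vamp4 (0.0403). Leaving out 1 sample at a time, differences ran through 0 between Ahr-/- and Ahrr-/- for Rab20 (-0.22 to 0.058), Rab8a (-0.19 to 0.035), Snap23 (-0.081 to 0.18), Snap47 (-0.099 to 0.055), Stx11 (-0.11 to 0.11) and Vamp4 (-0.0696 to 0.20), and between Ahr-/- and WT for Rab3gap2 (-0.012 to 0.18), Rab8b (-0.022 to 0.17), Stx11 (-0.24 to 0.085), Stx4a (-0.0045 to 0.088), Stxbp2 (-0.016 to 0.13) and Vamp4 (-0.16 to 0.19), and between Ahrr-/- and WT for Rab11fip1 (-0.13 to 0.0064), Rab14 (-0.042 to 0.039), Rab27b (-0.048 to 0.28), Snap23 (-0.038 to 0.24), Snap29 (-0.15 to 0.038), Stx11 (-0.26 to 0.12), Stx12 (-0.096 to 0.16), Stx2 (-0.13 to 0.064), Stxbp3 (-0.092 to 0.027), Vamp4 (-0.23 to 0.14) and Vamp8 (-0.14 to 0.055).

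The replicate block treats samples of the same sex and number as a unit, which the labels do not state. Over 18 such pairs from different genotypes, the correlation across genes of the deviations from the genotype mean ran from -0.62 to 0.57 and was over 0.1 in 11, and in 6 with sex removed as well, where 31 and 35 of 90 pairs of different number were over 0.1. A sample was most like its own number in another genotype in 11 of 36 cases, and in 8 of 36 with sex removed, each time among the 6 samples of that genotype.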

Other observations

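Summed normalized counts of the marker lists for other cell types, most of which the gate on CD11b+, MHC-II- and SiglecF+ cells should remove, were, in WT, labelled Ahr-/- and labelled Ahrr-/-: acinar 83.2 to 4464, 43.3 to 553 and 88.1 to 2612, macrophage and dendritic 14187 to 20389, 18602 to 22355 and 14853 to 22190.3, mast cell and basophil 58.8 to 179, 62.1 to 538 and 71.5 to 215, T cell 24.1 to 184, 25.7 to 103 and 21.9 to 188, B cell 734 to 2212, 438 to 1208 and 813 to 6667, fibroblast 61.3 to 227, 65.3 to 129.6 and 52.7 to 1755, endothelial (nearly all Pecam1, which leukocytes express) 2582 to 3848, 1885 to 2344 and 1804 to 3823, platelet 239 to 679.7, 136 to 207 and 702 to 1155, and neuronal and enteroendocrine 69.2 to 489.6, 84.3 to 214 and 248 to 979. The macrophage and dendritic list was led by Itgax, with a mean of 7552 normalized counts over all libraries. Which cells carried it was not tested, so that this sum is not a measure of contaminating cells.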
